A study of Homo sapiens with 12 samples.

Results

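XIRP1, PRR9 and ZNF469 are 3 unrelated protein-coding genes with a high level of messenger RNA after glucose withdrawal in control A375 cells. In cells kept in glucose XIRP1 and PRR9 had little or no messenger RNA, and ZNF469 had a low but clear level. These 3 are the gene names, of 61209 in the count table, that were picked for being low with glucose and high in starved control cells alone. They were selected on their measured levels in all 4 groups, so those levels and the differences made from them are given as a description with no test. The rule set no numerical threshold, and all 3 genes passed the filter on low counts. XIRP1 passed it only through the starved control libraries.

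A375 is an established human melanoma line. RNA was sequenced from 12 libraries in 4 groups of 3: control cells with glucose, control cells starved of glucose for 5 h, OGDH-depleted cells with glucose, and OGDH-depleted cells starved for 5 h. The OGDH protein is part of the mitochondrial enzyme complex that turns alpha-ketoglutarate into succinyl-CoA in the tricarboxylic acid cycle. The titles call the depleted cells KO while the series text speaks of knockdown, and the sources used here do not say how OGDH was removed, whether the depleted line was a single clone, or what the control cells carried.

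Libraries held 21556273 to 25546615 counted fragments. OGDH stood at 154 ± 11.9 CPM (fragment counts scaled to a common library size with TMM factors, mean ± SD, n = 3) in control and 39.8 ± 4.68 CPM in depleted cells with glucose, and at 131 ± 2.01 and 32.8 ± 0.904 CPM in the starved groups, so the libraries matched their OGDH labels. For starvation OGDH did not pass edgeR in control (adjusted p = 0.081) or depleted cells (adjusted p = 0.12), so its level does not check the glucose labels. Of 12 melanocyte and melanoma markers 11 were tested, with SOX10 at 633 ± 46.2 CPM and MITF at 30.1 ± 7.94 CPM in control cells with glucose. The pigment cell genes PMEL and MLANA lay near 1 CPM (1.13 ± 0.220 and 0.935 ± 0.269), and TYR held 2 fragments over all libraries. For starvation in control cells 1 of the 11 passed edgeR as higher (TYRP1) and 3 as lower (SOX10, S100B and MCAM), where 34.5% of all tested genes passed, 17% as higher and 17.5% as lower. Mitochondrial transcripts took 3.06% to 14.6% of the fragments of a library. In starved control replicates 1, 2 and 3 that share was 14.4%, 13.2% and 4.11%. Fed control replicate 2 (14.6%, against 4.97% and 6.35%) and starved depleted replicate 3 (9.71%, against 3.06% and 5.12%) also differed from their groups. These 3 libraries were known from earlier results to stand apart, and values without them are given below.

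The encoded proteins belong to different tissues. XIRP1, also called Xin, is an actin-binding protein of striated muscle that holds filaments together at intercalated discs and myotendinous junctions and is known for its induction in damaged muscle. PRR9 encodes a small proline-rich protein and lies in the epidermal differentiation complex, the gene cluster that encodes most structural proteins of the cornified skin surface. ZNF469 encodes a very large zinc finger protein whose loss causes brittle cornea syndrome, a disorder of the connective tissue of the eye, and it has been linked to the expression of extracellular matrix genes.

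In hg38 coordinates of the count table, XIRP1 lies on chromosome 3 from 39183210 to 39192596 on the minus strand, PRR9 on chromosome 1 from 153217584 to 153219310 on the plus strand, and ZNF469 on chromosome 16 from 88382959 to 88440757 on the plus strand. Each gene has most of its counted sequence in a single exon block: 97.7% of 6467 bases for XIRP1, 97.1% of 1222 bases for PRR9 and 97.4% of 13774 bases for ZNF469. No other gene name has an exon within the span of any of the 3, so their counts do not compete with an overlapping or antisense gene in that annotation.

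The upstream sequences of XIRP1 and PRR9 are shown so that their start regions can be compared. ZNF469, like them, was highest in the 3 starved control libraries, but the promoter source held no sequence under its symbol. They are the 250 bases before the RefSeq transcription start in build GRCh38.p14, read along the gene, at chr3:39192596-39192845 (minus strand) and chr1:153217334-153217583 (plus strand). Capitals mark matches to an AP-1 site (TGANTCA, which reads the same on both strands), to a TATA box (TATAAA) or to the MEF2 consensus.

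XIRP1: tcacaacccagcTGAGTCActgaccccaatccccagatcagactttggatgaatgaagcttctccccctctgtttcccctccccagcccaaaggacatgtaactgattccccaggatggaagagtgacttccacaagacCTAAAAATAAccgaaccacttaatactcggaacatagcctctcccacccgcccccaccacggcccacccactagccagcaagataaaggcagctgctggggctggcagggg

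PRR9: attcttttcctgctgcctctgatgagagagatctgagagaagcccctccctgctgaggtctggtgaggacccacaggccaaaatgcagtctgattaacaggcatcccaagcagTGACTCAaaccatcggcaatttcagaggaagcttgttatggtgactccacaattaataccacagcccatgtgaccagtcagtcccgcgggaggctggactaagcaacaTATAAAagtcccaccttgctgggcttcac

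Both windows held 1 match to the AP-1 motif, the site read by FOS and JUN dimers. It lay 238 to 232 bases upstream of the start in XIRP1 and 137 to 131 bases upstream in PRR9, and 6.57% of 35114 RefSeq promoter windows of the same length hold it. The PRR9 window had a TATA box 29 to 24 bases upstream, a motif in 10.7% of windows, and the XIRP1 window had none. The XIRP1 window had a match to MEF2, a factor family of muscle genes, 111 to 102 bases upstream (2.8% of windows). Both strands were searched for 8 further motifs. The E-box CANNTG (61.8% of windows) matched in both genes, and the upstream XIRP1 match overlapped the AP-1 site. The CCAAT box CCAAT (32% of windows) and the GC box GGGCGG (42.6%) matched in XIRP1 alone. The cAMP response element TGACGTCA (1.65%), the C/EBP-ATF composite site TGATGNAA (3.14%), the heat shock element (0.441%), the ER stress element (0.074%) and the CArG box of serum response factor (1.16%) had no match in either window. A match describes letters in the sequence and is not evidence of binding.

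**Figure D1:**
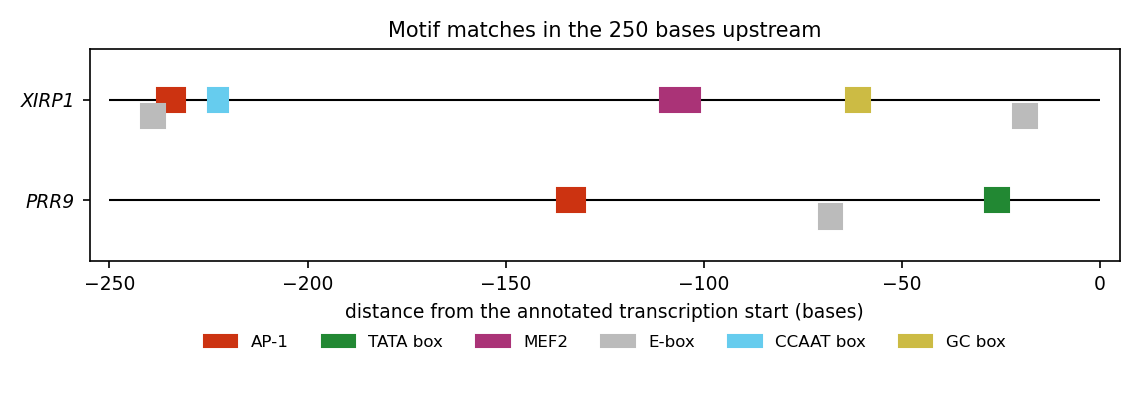
Positions of motif matches in the 250 bases upstream of XIRP1 and PRR9, with the distance from the annotated transcription start in bases on the horizontal axis and 1 line per gene. Boxes are matches on either strand, and the AP-1 match lies 238 to 232 bases upstream in XIRP1 and 137 to 131 bases upstream in PRR9.

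XIRP1 went from almost no signal to the highest level of the 3 genes. With glucose, control replicates 1, 2 and 3 held 5, 0 and 1 XIRP1 fragments (0.198, 0 and 0.0419 CPM). The starved control replicates held 660, 638 and 1003 fragments (37.0, 34.3 and 42.2 CPM). In these libraries 3 fragments correspond to 0.112 to 0.168 CPM, so the fed level was at the limit of detection. The ratio of starved to fed control cells was 460, with a 95% exact binomial interval of 211 to 1255 that covers counting error alone, and the fitted log2 fold change was 8.75 (SE 0.40).

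OGDH-depleted cells had a trace of the same change. XIRP1 held 1, 1 and 3 fragments in fed depleted replicates (0.0400, 0.0442 and 0.112 CPM) and 8, 9 and 12 in starved depleted replicates (0.310, 0.375 and 0.547 CPM). The 2 groups did not overlap, which 20.6% of tested genes also showed in this direction, and the ratio was 6.02 with a counting interval of 2.30 to 19.9 (log2 fold change 2.50, SE 0.62). Starved depleted cells nevertheless reached only 1.09% of the starved control mean, and the starved control to starved depleted ratio was 94.5 (65.6 to 141).

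PRR9 rose to a lower count from a similarly low start. Control replicates with glucose held 4, 1 and 3 PRR9 fragments (0.159, 0.0433 and 0.126 CPM), against 107, 122 and 206 in starved control replicates (6.004, 6.56 and 8.67 CPM). The ratio was 65.2 with a counting interval of 32.8 to 152, and the log2 fold change was 5.94 (SE 0.38). In depleted cells PRR9 held 10, 7 and 13 fragments with glucose (0.400, 0.309 and 0.485 CPM) and 18, 6 and 11 without (0.698, 0.250 and 0.502 CPM). These groups overlapped, with a ratio of 1.21 (0.722 to 2.04), and across the alternative settings the log2 fold change ran from -0.11 to 0.58. Starved depleted cells stood at 6.83% of the starved control mean, a ratio of 14.8 (10.5 to 21.5) in favour of control cells.

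ZNF469 differed from the others because it was not silent with glucose. Control replicates with glucose held 52, 42 and 68 fragments (2.06, 1.82 and 2.85 CPM), well above the 3-fragment limit, so the description near-silent holds for XIRP1 and PRR9 and not for ZNF469. Starved control replicates held 464, 429 and 799 fragments (26.0, 23.1 and 33.6 CPM), a ratio of 12.5 (10.7 to 14.8) and a log2 fold change of 3.62 (SE 0.21). In depleted cells the level was lower after starvation, with 75, 63 and 61 fragments with glucose (3.002, 2.78 and 2.28 CPM) and 23, 21 and 15 without (0.892, 0.875 and 0.684 CPM). The depleted groups did not overlap (19.1% of tested genes in this direction), and the fed to starved ratio was 3.25 (2.42 to 4.42, log2 fold change -1.70, SE 0.24, starved over fed). Starved depleted cells were thus also below control cells with glucose, with a ratio of 2.73 (2.01 to 3.74) in favour of the latter. Across 20 alternatives this log2 change in depleted cells stayed between -1.81 and -1.58.

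**Figure D2:**
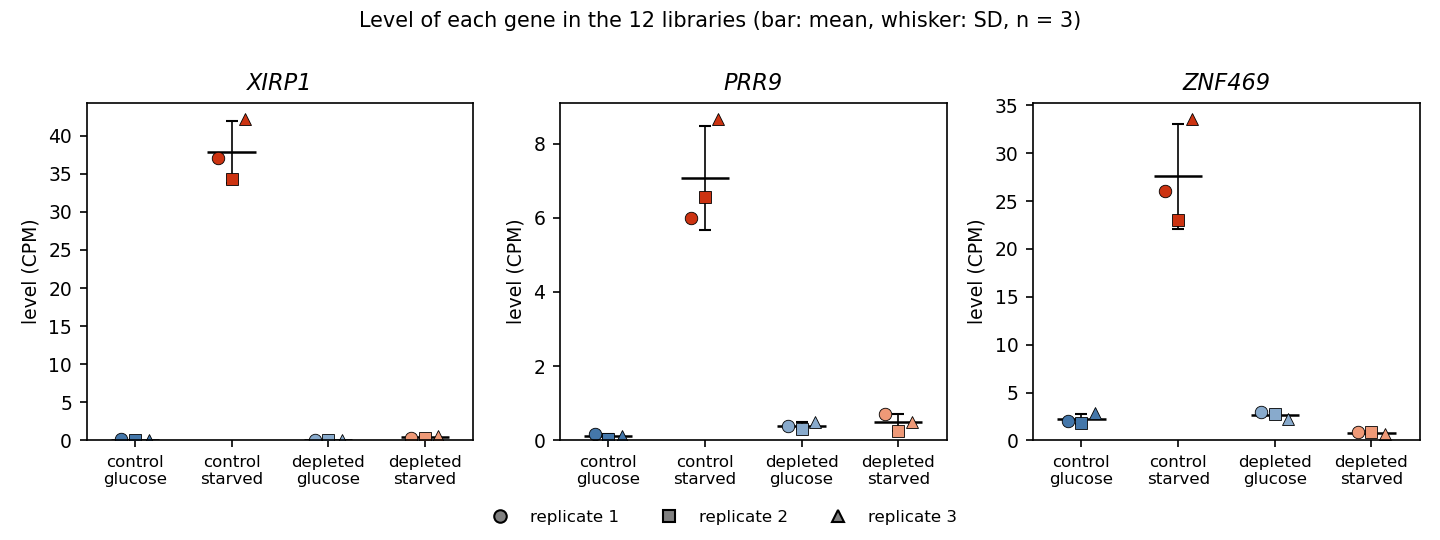
Level of XIRP1, PRR9 and ZNF469 in CPM on the vertical axis of each panel, with the 4 groups on the horizontal axis, 1 point per library, a bar at the mean and a whisker of 1 SD (n = 3). All 3 starved control libraries lie above the 9 others for each gene, and replicate 3 is the highest of them.

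**Figure D3:**
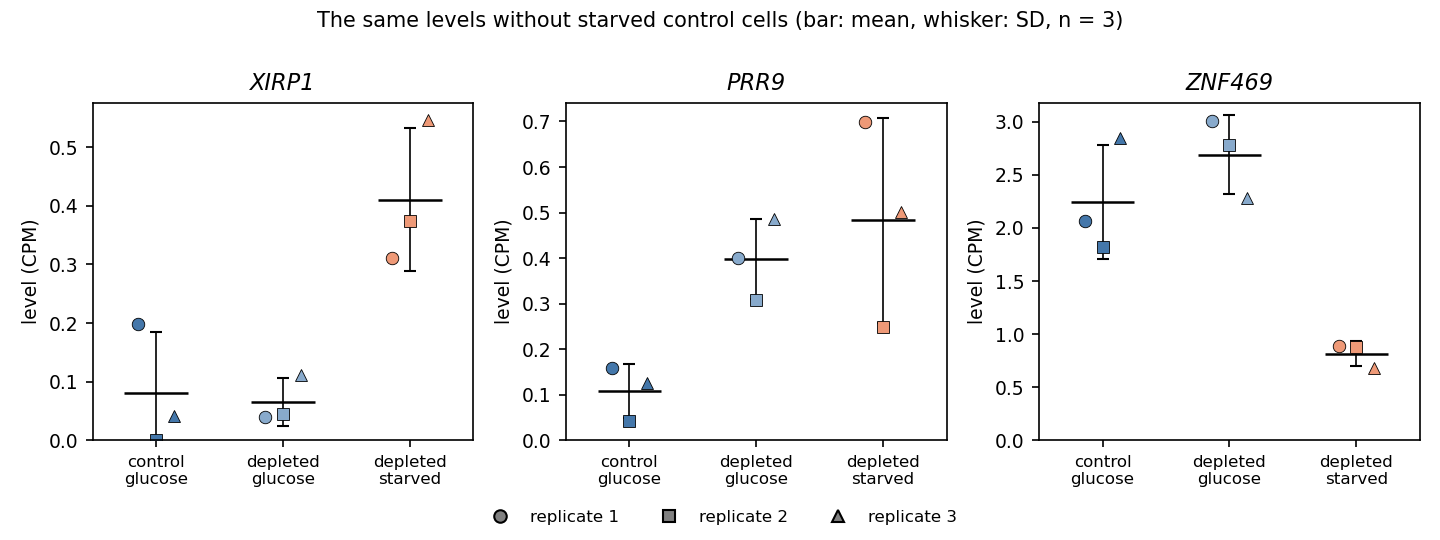
The same CPM values without starved control cells, on an axis of their own for each gene (points are libraries, bar is the mean, whisker is 1 SD, n = 3). Starved depleted libraries are the highest for XIRP1 and the lowest for ZNF469, while for PRR9 they overlap fed depleted libraries and all depleted libraries lie above fed control.

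For each gene all 3 starved control libraries lay above the 9 others, a pattern found in 12.2% of the 18526 tested genes and one that the choice of these genes fixed. Starved control libraries were above fed control libraries in 19.4% of tested genes, and starved depleted libraries below starved control libraries in 19.6%. Below that group the order differed. For XIRP1 starved depleted cells came next, followed by the fed groups, which overlapped. PRR9 had starved and fed depleted cells next, which overlapped, with fed control cells lowest. ZNF469 had the overlapping fed groups next and starved depleted cells lowest, at 2.96% of the starved control mean.

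Expressed per kilobase of exon, which allows genes of different length to be compared, XIRP1 and PRR9 reached the same level in starved control cells. XIRP1 stood at 5.85 ± 0.622 and PRR9 at 5.79 ± 1.15 CPM per kilobase, a gap smaller than either SD. ZNF469 stood at 2.002 ± 0.395 CPM per kilobase. With glucose the order in control cells was reversed, with ZNF469 at 0.163 ± 0.0391, PRR9 at 0.0893 ± 0.0486 and XIRP1 at 0.0124 ± 0.0162 CPM per kilobase. The PRR9 and ZNF469 values lie apart by more than either SD, and so do those of PRR9 and XIRP1.

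All 3 genes were highest in starved control replicate 3, the library with the lowest mitochondrial share of its group. Replicate 3 exceeded the mean of replicates 1 and 2 by a factor of 1.18 for XIRP1, 1.38 for PRR9 and 1.37 for ZNF469. The part of library composition in these differences was not tested. Without the 3 libraries that stood apart the starved control means were 36.2, 6.37 and 24.9 CPM, against 37.8 ± 4.02, 7.08 ± 1.41 and 27.6 ± 5.45 CPM with all libraries, and the log2 fold changes for starvation in control cells were 8.12, 5.403 and 3.315. In the control libraries then left, a high mitochondrial share goes together with starvation, so the 2 cannot be told apart there.

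OGDH loss with glucose can be read only as a description for these genes, because being low with glucose was part of the choice. PRR9 was higher in all 3 depleted libraries than in all 3 control libraries, a separation upward that 14.2% of tested genes showed. Its ratio was 3.64 (counting interval 1.63 to 9.19) and its log2 fold change 1.81 (SE 0.51), on 30 and 8 fragments. The fed groups overlapped for XIRP1 (log2 fold change -0.28, SE 0.84) and for ZNF469 (0.26, SE 0.21), and the counting intervals of their depleted to control ratios were 0.195 to 3.18 and 0.964 to 1.48. With 6 XIRP1 fragments in fed control and 5 in fed depleted cells, a difference up to the ends of that interval was not detectable at this depth.

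To place the 3 genes among all others, the share of each gene's summed group means that came from starved control cells was ranked over the 14867 tested genes with at least 1 CPM in that group. XIRP1 ranked 1 with 98.6%, PRR9 ranked 18 with 87.7% and ZNF469 ranked 37 with 82.8%, where the median gene had 25.1%. In all 13 genes reached 90% and 49 reached 80%. The share uses the levels on which the genes were picked, so high ranks follow from the choice.

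The genes with the most similar profile were then found from the 12 CPM values, each taken as a percentage of the gene's own starved control mean. Likeness was the root mean square difference in percentage points over the 12 libraries. Nearest to XIRP1 were FRG2C (3.46 points), KRT6A (5.01) and TENT5C (5.12). KRT6A encodes a keratin of wounded and stressed epidermis and stood at 9.95 ± 1.36 CPM in starved control cells against 0.469 ± 0.296 with glucose, and TENT5C, a non-canonical poly(A) polymerase, at 8.84 ± 0.274 against 0.151 ± 0.0617 CPM. Nearest to PRR9 were LBH (2.28 points), RPLP0P2 (2.72) and RASD1 (4.57). LBH, a transcription cofactor, stood at 18.2 ± 3.61 against 0.531 ± 0.308 CPM, and RASD1, a Ras-related GTPase induced by glucocorticoids, at 32.9 ± 6.07 against 0.390 ± 0.158 CPM. Nearest to ZNF469 were KRT6A (4.56 points), RPLP0P2 (4.77) and FRG2C (5.60). FRG2C belongs to a family of close copies and RPLP0P2 is a ribosomal protein pseudogene, so their counts are uncertain. The 3 genes themselves were 6.04 to 7.39 points apart. These distances share the same libraries and are dominated by the starved control group.

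On chromosome 1 some tested genes on the lower-coordinate side of PRR9 were higher in starved control cells along with it. The 4 nearest tested genes on that side, SPRR2B, SPRR2A, SPRR2D and IVL, lie 146 to 306 kb away within the epidermal differentiation complex and encode precursors of the cornified envelope. Genes of the complex nearer to PRR9 were too low to be tested. LELP1 and SPRR2G held 0 fragments over all libraries and LORICRIN held 1. From fed to starved control cells SPRR2F went from 6 to 2 fragments and SPRR2E from 4 to 14. SPRR2D, a small proline-rich protein, went from 7.89, 10.1 and 8.204 CPM in fed control to 271, 226 and 154 CPM in starved control replicates (log2 fold change 4.63, SE 0.27, edgeR adjusted p = 2.5e-07). SPRR2A went from 0.125 ± 0.111 to 4.11 ± 0.447 CPM (4.99, SE 0.52, edgeR adjusted p = 2.5e-05). Neither pair of groups overlapped, which 19.4% of tested genes also showed in this direction. SPRR2B had 0 fragments in fed control and 82 in starved control libraries, and IVL, which encodes involucrin, had 2 and 54. The last 2 were testable only because of the starved control libraries and count as a description. SPRR2 genes are close copies and fragments mapping to several of them were left out, so their levels are uncertain.

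On the other side of PRR9 the 5 nearest tested names, LAPTM4BP1, ENSG00000238279, S100A6, S100A5 and S100A4, lie 161 to 324 kb away. When control cells were starved 0 of these 5 passed edgeR (adjusted p from 0.18 to 0.76), where 34.5% of all tested genes passed. None of the 5 had an unadjusted p under 0.05, and 0 passed DESeq2. LCE1E, the next tested gene past IVL, stood at 0.01 (edgeR adjusted p = 0.98). In depleted cells SPRR2D stood at 11.6 ± 0.848 CPM with glucose and 18.2 ± 5.50 without, and SPRR2A at 0.630 ± 0.290 and 0.931 ± 0.457 CPM. There 0 of the 4 SPRR2 and IVL genes passed edgeR or DESeq2, where 7.18% of all tested genes passed edgeR. SPRR2D was the 1 of these 4 with an unadjusted p under 0.05.

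A list of 40 genes of the epidermal differentiation complex, drawn up with earlier results of these data known, gave the wider view. Of these 11 were tested, and the other 29 had at most 25 fragments over all libraries, 9 of them none. For starvation in control cells 5 of 11 passed as higher and 0 as lower, with a median log2 fold change of 0.45 against -0.02 over all tested genes. Among all tested genes 34.5% passed, 17% as higher and 17.5% as lower. With library totals and no TMM factors the median of all genes fell to -0.30, the higher share of calls went from 49.2% to 25.2%, and the same 5 genes of this list passed as higher with 2 as lower. Leaving out the 2 that were testable only through starved control libraries, 3 of 9 passed as higher, namely SPRR2A, SPRR2D and KPRP. KPRP, a keratinocyte proline-rich protein, went from 0.585 ± 0.266 to 32.5 ± 12.3 CPM (5.78, SE 0.42, edgeR adjusted p = 1.5e-06) in control cells. In depleted cells it went from 1.01 ± 0.212 to 3.18 ± 1.07 CPM (1.64, SE 0.39, edgeR adjusted p = 0.029) and was the 1 of 11 that passed there, a call lost on leaving out any 1 of the fed depleted libraries or starved depleted replicate 2 or 3 (adjusted p from 0.069 to 0.12), where 7.18% of all tested genes passed, 2.42% as higher and 4.76% as lower. FLG, FLG2, HRNR and TCHH, which encode large filaggrin-type proteins of the same cluster, stood between -0.36 and 0.05 in control cells (edgeR adjusted p from 0.15 to 0.89).

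Within starved control cells the replicate order of these genes mostly differed from that of PRR9. KPRP stood at 38.4, 40.7 and 18.3 CPM and SPRR2D at 271, 226 and 154 CPM in replicates 1, 2 and 3, lowest where PRR9, XIRP1 and ZNF469 were highest. IVL and SPRR2B were also lowest in replicate 3 (0.715 and 0.842 CPM). SPRR2A was highest there, at 4.42 CPM against 4.32 and 3.6005 CPM in replicates 1 and 2. Markers of keratinocytes as a cell type moved in part. Of 14, 8 were tested, 3 passed as higher (KRT15, SFN and KRT6A) and 1 as lower (DSC3), against 17% and 17.5% of all tested genes, while KRT1 had no fragments in any library. KRT5, TP63, DSG3, DSG1 and TGM3 held at most 22 fragments over all libraries, and KRT14, KRT10, COL17A1 and TGM1 did not pass (edgeR adjusted p from 0.33 to 0.64). The summed level of the list was 64.1 to 82.8 CPM in fed control, 141 to 175 in starved control, 71.2 to 75.8 in fed depleted and 73.5 to 83.8 CPM in starved depleted libraries. Its rise came mainly from SFN (13.5 ± 1.49 to 63.5 ± 5.96 CPM), KRT15 (15.3 ± 3.38 to 30.3 ± 6.71 CPM) and KRT6A. The part of other cell types in the PRR9 result was not tested, and in bulk RNA more cells of a kind and more RNA per cell cannot be told apart.

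**Figure D4:**
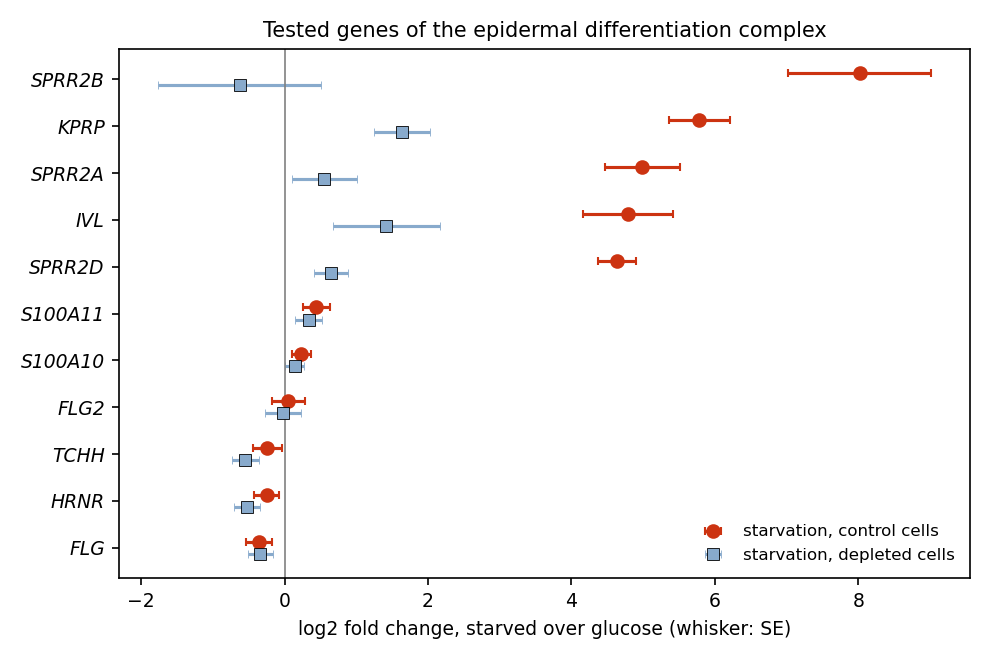
Log2 fold change of starved over fed cells (horizontal axis, whisker 1 SE) for the 11 tested genes of the epidermal differentiation complex list, as circles for control and squares for depleted cells. SPRR2A, SPRR2B, SPRR2D, IVL and KPRP lie above 4 in control cells and the other 6 lie between -0.36 and 0.45.

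Around XIRP1 and ZNF469 the neighbouring genes moved less than the genes themselves. That difference follows from picking the genes for a large change and is given as a description. Near XIRP1 4 of 10 tested neighbours passed as higher and 1 as lower, against 17% and 17.5% of all tested genes, with a largest log2 fold change of 1.99 (SE 0.22) for ENSG00000284669, 10.3 kb away. CSRNP1, a nuclear protein gene 28.6 kb away, went from 30.1 ± 10.2 to 87.96 ± 35.4 CPM (1.55, SE 0.33, edgeR adjusted p = 0.0035). For ZNF469 4 of 10 passed as higher and 0 as lower, and 1 of the 4, ENSG00000260466, was testable only through starved control libraries. BANP, a nuclear DNA-binding protein gene 306 kb away, stood at 0.85 (SE 0.10, edgeR adjusted p = 5.6e-05). The nearest neighbour, ZFPM1, a transcription cofactor gene 12.5 kb away, stood at 0.48 (SE 0.12, edgeR adjusted p = 0.011) and lost its call without scaling factors (adjusted p = 0.15). Over all 30 neighbours of the 3 genes 12 passed as higher and 1 as lower, and leaving out 3 that were testable only through starved control libraries 9 of 27 and 1 of 27 did, again against 17% and 17.5% of all tested genes. For starvation in depleted cells 0 of 30 passed as higher and 1, ENSG00000238279, as lower, where 2.42% and 4.76% of all tested genes did, with 5 at an unadjusted p under 0.05 and the same 1 by DESeq2. That call was lost on leaving out any 1 of 5 depleted libraries (edgeR adjusted p from 0.069 to 0.14). By coordinates ENSG00000284669 overlaps CSRNP1, ENSG00000260466 overlaps SLC7A5 and ENSG00000238279 overlaps S100A6, each on the opposite strand. Counting was unstranded, so these neighbours may not be independent of each other and the levels of the faint names are uncertain.

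**Figure D5:**
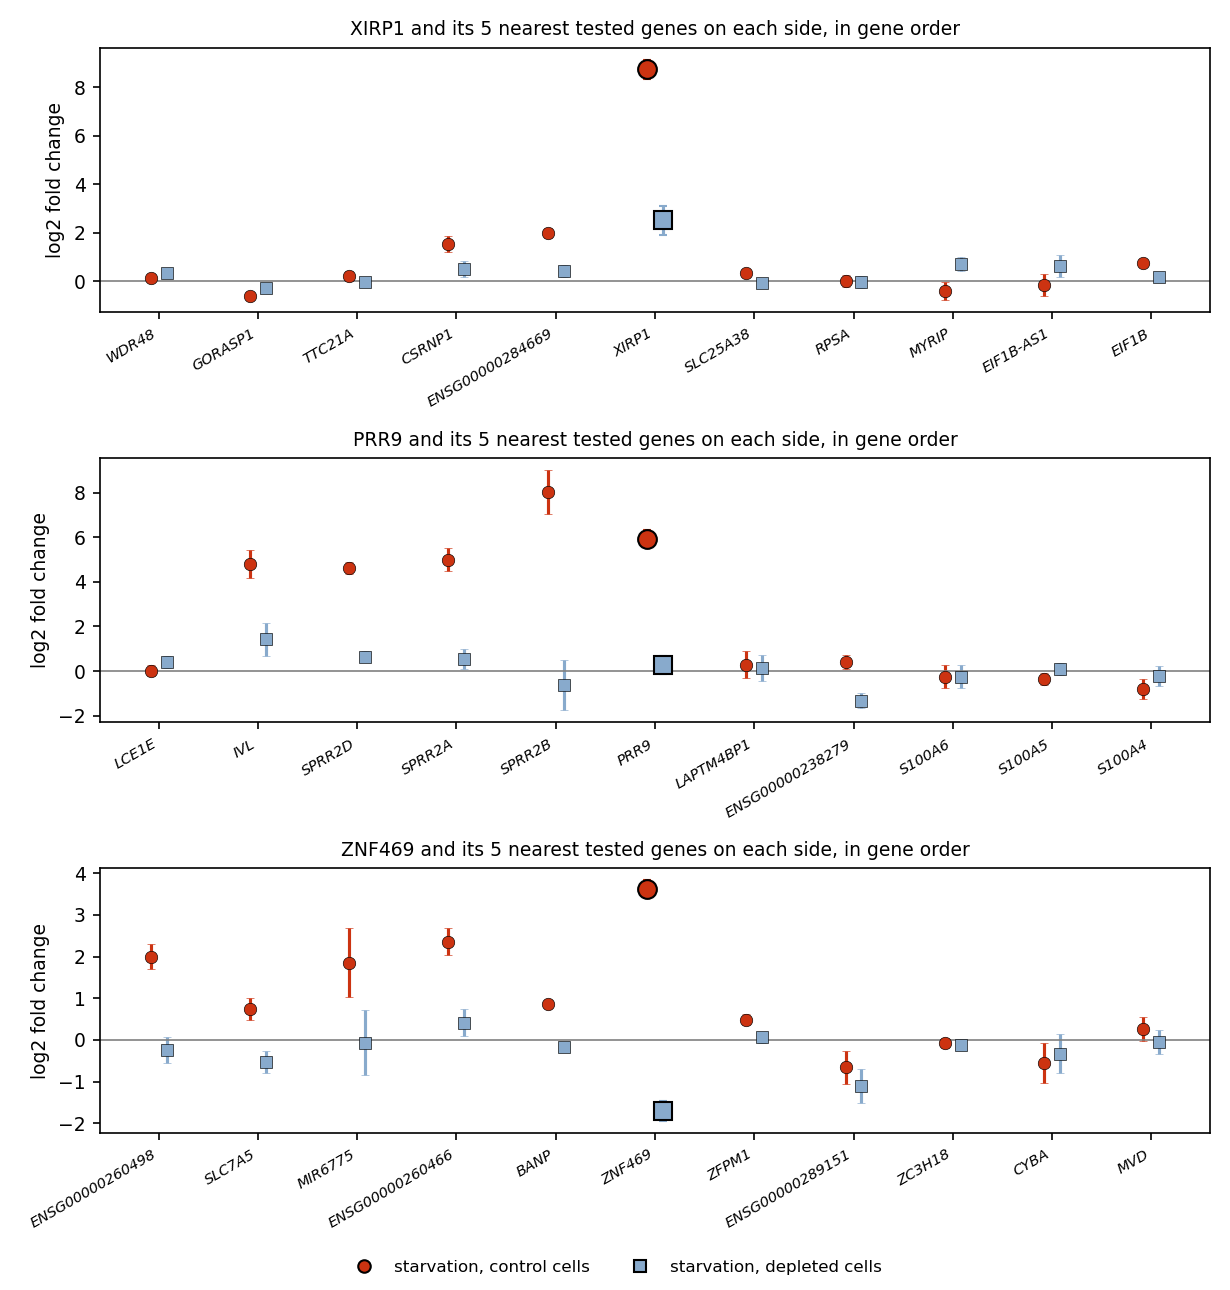
Log2 fold change of starved over fed cells (vertical axis, whisker 1 SE) for XIRP1, PRR9 and ZNF469 (large symbols) and their 5 nearest tested genes on each side in gene order, as circles for control and squares for depleted cells. In each panel the central gene and, for PRR9, the 4 genes to its left stand above 3 in control cells, while every other neighbour is at or below 2.36.

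Proteins that work with Xin in muscle were measured from a list of 26, which covers Ena/VASP proteins, cadherin and catenins of the adhesion complex, Z-disc proteins and the BAG3 chaperone system that clears damaged cytoskeletal proteins. Of these 19 were tested. For starvation in control cells 8 of 19 passed as higher and 3 as lower (median 0.39), against 17% and 17.5% of all tested genes, and 7 and 4 passed with library totals. HSPB8, a small heat shock protein, went from 13.6, 11.4 and 14.7 CPM to 78.7, 76.3 and 101.2 CPM (2.69, SE 0.15, edgeR adjusted p = 1.7e-07). BAG3, its cochaperone partner, went from 208 ± 15.1 to 1276 ± 52.3 CPM (2.62, SE 0.11, edgeR adjusted p = 2.8e-08). ACTN2, the muscle alpha-actinin of the Z-disc, went from 5.14 ± 0.788 to 30.4 ± 2.92 CPM (2.56, SE 0.14, edgeR adjusted p = 1.5e-07). EVL, CTNNB1 and LASP1 passed as lower, and the last 2 lost their calls under 11 of the alternatives (edgeR adjusted p from 0.058 to 0.16, against 0.045). In starved depleted cells BAG3 alone passed (0.84, SE 0.10, edgeR adjusted p = 0.00083), which is 1 of 19 where 7.18% of all tested genes passed, and HSPB8 stood at 0.02 (SE 0.14, edgeR adjusted p = 0.94).

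XIRP2, the closest relative of XIRP1, stood at 0.75 in control cells (edgeR adjusted p = 0.15), and the muscle filamin FLNC was among the 7 of 26 that were not tested. Of 22 general muscle markers 7 were tested and 0 passed edgeR for starvation in control cells, where 34.5% of all tested genes passed, with 1 at an unadjusted p under 0.05 and 0 by DESeq2. That gene was ACTA1, skeletal muscle actin, which was testable only through starved control libraries and is given by level, 0.164 ± 0.101 CPM with glucose and 0.445 ± 0.148 CPM without. Leaving it out, 0 of 6 passed. MYOD1, MYH7, MB and PAX7 had no fragments in any library, and the summed level of the 22 was 31.0 to 35.0 CPM in fed control, 30.7 to 35.8 in starved control, 34.2 to 35.4 in fed depleted and 30.4 to 37.2 CPM in starved depleted libraries.

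Genes of the corneal stroma and its matrix were measured from a list of 32 because ZNF469 is linked to matrix expression. Of 23 tested, 3 passed as higher and 4 as lower for starvation in control cells, with a median of -0.11. With library totals 3 and 8 passed (median -0.40). FBN2, fibrillin 2, went from 0.998 ± 0.0476 to 6.47 ± 0.957 CPM (2.69, SE 0.31, edgeR adjusted p = 4.9e-05) and FKBP14, an ER prolyl isomerase for collagen, from 10.6 ± 2.24 to 24.6 ± 2.62 CPM (1.21, SE 0.15, edgeR adjusted p = 8e-05). CHST14, a dermatan sulfotransferase, went from 21.6 ± 5.29 to 8.34 ± 1.35 CPM (-1.37, SE 0.20, edgeR adjusted p = 0.00026). The collagen gene COL5A2 (-0.63, SE 0.09), FBN1 (-0.65, SE 0.14) and TGFBI (-0.45, SE 0.09) also passed as lower, and fibronectin FN1 as higher (0.96, SE 0.09). In starved depleted cells 0 of 23 passed edgeR, where 7.18% of all tested genes passed, with 2 at an unadjusted p under 0.05 and 1, FN1, by DESeq2. The members that passed thus moved in both directions while ZNF469 was 12.5 times higher, and the share that passed as higher, 3 of 23, was near the 17% of all genes.

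The response to starvation itself was compared between depleted and control cells with an interaction term, and 8.3% of tested genes passed as higher and 8.95% as lower in depleted cells. With library totals the higher share of these calls was 74% in place of 48.1%. Of the Xin partners 0 of 19 passed as higher and 6 as lower, of the epidermal differentiation complex 0 and 4 of 11, and of the stroma list 4 and 3 of 23. The Xin partners included BAG3, HSPB8, HSPB1, HSPA8 and ACTN2, and the 4 genes of the epidermal complex were KPRP, SPRR2A, SPRR2B and SPRR2D. Leaving out SPRR2B and IVL, which were testable only through starved control libraries, 3 of 9 passed as lower.

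OGDH depletion with glucose moved few genes of these lists. By edgeR 0 of 19 Xin partners and 0 of 11 epidermal complex genes passed, with 1 (BAG3) and 3 (FLG2, SPRR2A and TCHH) at an unadjusted p under 0.05, and DESeq2 called 0 and 1. That 1 was SPRR2A, which like PRR9 was higher in depleted cells (2.27, SE 0.63, edgeR adjusted p = 0.086). In the stroma list 2 of 23 passed edgeR, BGN and COL6A3, both as higher. Among all tested genes 3.04% passed, 1.59% as higher and 1.45% as lower. The call of BGN was lost on leaving out any 1 of 5 of the fed libraries (edgeR adjusted p up to 0.12).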

How the data were processed

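RNA sequencing of A375 cells gave 12 libraries in 4 groups, assigned from the sample titles. The values deposited by the authors are raw fragment counts for each gene name, obtained with featureCounts 2.0.1 on exons in paired, unstranded mode, per the file headers. Exon lengths in bases came from the same deposited table. Subread and hg38 stand in the submitters' processing notes, and the aligner is not given in the sources used here.

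edgeR 4.0.16 (R 4.3.3, limma 3.58.1) was run with TMM factors, filterByExpr (minimum count 10, minimum total 15, which kept 18526 names and left 42683 untested) and a single quasi-likelihood fit over the 4 groups. P-values were adjusted by Benjamini-Hochberg over all tested genes, with a threshold of 0.05. Ratios of summed fragments carry 95% exact Clopper-Pearson intervals. DESeq2 1.42.0, other scalings and filters, a replicate block and omitted libraries were alternatives. The fit was tested on simulated counts. Nothing in the labels tells if the libraries within a group were separate cultures, and p-values then reflect the spread among these libraries, which may be technical. Chi-square per degree of freedom between replicates was 3.91 to 162, so no library repeats another.

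The 3 genes, the gene lists and the tests were chosen with earlier results of these data known. Genes were named as the 3 nearest profiles of each gene, its 5 nearest tested neighbours on each side, and the 3 called genes of each list with the largest change in starved control cells, given 1 CPM or more where higher. Other genes were named after their values were seen. Promoter sequences came from RefSeq (GRCh38.p14), where 2 of the 3 genes matched by symbol. The values of 1 gene of the lists are not reported here. A test of the 3 genes for depletion with glucose was planned, and its values are given as a description because the choice used the fed levels.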

Additional observations from a re-analysis of the deposited data

Results flagged for a closer look

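The starvation response of several named genes differed between depleted and control cells by edgeR's interaction test with Benjamini-Hochberg adjustment. Values are the log2 response in depleted cells minus that in control cells. XIRP1, PRR9 and ZNF469 were chosen for this difference and are left out. The genes named from the lists were picked for their change in starved control cells, which is part of this difference. KRT6A also had a profile near those of XIRP1 and ZNF469, and other genes were named after their values were seen. The adjusted p-values of such genes are thus not free of that choice. Among all tested genes 8.3% passed as higher and 8.95% as lower. Named genes with adjusted p = 0.001 or less in the fit were HSPB8 (-2.67), BAG3 (-1.78), SPRR2D (-3.99), ACTN2 (-2.15), SFN (-2.0004), KRT6A (-4.09), BANP (-1.03) and KPRP (-4.14). SPRR2A stood at -4.43 and SPRR2B at -8.65, a fitted value that depends on the prior count because fed control libraries held 0 fragments and whose call was lost without fed depleted replicate 2 (adjusted p = 0.11). FBN2 stood at -2.41, FKBP14 at -1.18, TYRP1 at -3.38, EIF1B at -0.58, ENSG00000284669 at -1.58, ENSG00000260498 at -2.24, ENSG00000260466 at -1.95, ENSG00000238279 at -1.71, SLC7A5 at -1.27, SLC25A38 at -0.41, HSPB1 at -0.89, HSPA8 at -0.92, FN1 at -0.70 and KRT15 at -1.01. SPRR2B and ENSG00000260466 were testable only through starved control libraries, so their values are a description. Differences in the other direction were DSC3 (1.83), S100B (1.52), CHST14 (0.99), SOX10 (0.71), COL5A2 (0.64) and MCAM (0.64). The calls of KRT15, SLC7A5, SLC25A38, DSC3, CHST14 and MCAM were each lost under 8 or more of the 20 alternatives.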

How the results depend on the processing

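The mean level of each gene in starved control cells moved by less than 1 SD under each alternative that gave it, except XIRP1 with library totals and no scaling factors (32.9 CPM). Leaving out single libraries gave 35.9 to 40.3 CPM for XIRP1, 6.32 to 7.75 for PRR9 and 24.7 to 30.3 for ZNF469. For OGDH depletion with glucose, single omissions gave log2 changes of -0.89 to 1.44 for XIRP1, where the sign reversed without fed control replicate 1 (1.44), 1.46 to 2.17 for PRR9 and 0.13 to 0.47 for ZNF469. DESeq2 gave 1.87 for PRR9. The cause was not tested.

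Without the 3 libraries that stood apart, calls rose from 6400 to 11364 for starvation in control cells, from 1330 to 3313 in depleted cells, from 563 to 2021 for depletion with glucose, from 5310 to 9874 without glucose and from 3196 to 8077 for the interaction. Called stroma genes rose from 7 to 13 and called neighbours from 13 to 20. In control cells the libraries left had a mitochondrial share of 4.97% and 6.35% with glucose and 14.4% and 13.2% when starved. Library composition and starvation thus cannot be told apart in that subset, and it is not a cleaner check. DESeq2 gave 2031 calls for starvation in depleted cells and 1172 for depletion with glucose, and a fit on only the groups compared gave 215 for the latter. Single omissions gave 583 to 1959 calls for starvation in depleted cells (lowest without starved depleted replicate 2) and 172 to 632 for depletion with glucose (lowest without fed depleted replicate 1). Library totals called 11 stroma genes, and a stricter filter left 3 called genes of the epidermal complex in place of 5, because fewer genes were tested. Over the called genes followed through the alternatives, 656 values for starvation in control cells kept their side of the threshold and 37 lost it (CTNNB1, DSC3, GORASP1, LASP1, SLC25A38 and ZFPM1). For the interaction 494 kept it and 70 lost it. None of these reversed.

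Replicate numbers were not taken as pairs, since deviations of same-numbered libraries correlated from -0.79 to 0.75 and 8 of 18 pairs exceeded 0.1. A replicate block gave 342 calls for depletion with glucose and 1.81 for PRR9.

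At this depth 3 fragments equal 0.112 to 0.168 CPM, so XIRP1 and PRR9 differences between fed groups rest on 30 fragments or fewer per group.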
